A study of Mus musculus with 6 samples.

Results

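The 10 genes described here are Cd40, the receptor through which T follicular helper cells signal to B cells, and 9 genes of the NF-kB pathway that acts below it: the adaptor Traf1, the subunits Rel, Relb, Nfkb1 and Nfkb2, the inhibitors Nfkbia, Nfkbie and Nfkbid, and the ubiquitin-editing enzyme Tnfaip3 (A20). They were chosen by name with earlier results of these data known, so counts of them set beside all genes are descriptions. All 10 were found among the 14548 gene symbols that the 3 deposited count tables share. The study sequenced single germinal centre (GC) B cells sorted from mouse spleen with 10x 5' chemistry, in 6 libraries. Wild type mice were sampled at day 7 (Day7, 2 libraries, gated B220+ CD38- GL7hi) and at day 14 (Day14, 2 libraries, gated B220+ CD95hi GL7hi IgD-). The other 2 libraries came from bone marrow chimaeras at day 14 under the Day14 gate. In Chimaera_control the irradiated host was Il4ra+/+, and in Chimaera_KO it was Ccl19Cre/+ Il4raf/f. All groups had received NP-haptenated antigen in alum, and both chimaeras carried wild type marrow, so the sorted B cells of the KO library descend from cells with intact Il4ra and the level of that gene in them does not check the deletion. Ccl19, whose promoter drives the Cre, is made by fibroblastic stromal cells of lymphoid organs. Each chimaera group is 1 library, and neither the number of animals behind a library nor their age is given in the sources used here.

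As background, CD40 recruits TRAF adaptor proteins when it meets CD40 ligand on a T cell. The canonical branch then removes the IkB inhibitors, which hold NF-kB dimers of c-Rel or RelA with p50 in the cytoplasm, and the noncanonical branch turns the p100 product of Nfkb2 into p52, the partner of RelB. Nfkbia, Nfkbie, Nfkb2, Relb, Traf1 and Tnfaip3 are textbook NF-kB target genes, so the pathway transcribes its own brakes. In the germinal centre, B cells take up antigen and receive T cell help in the light zone (LZ), and divide and mutate in the dark zone (DZ). A transient MYC-high state marks light zone cells that have been selected for another round of division.

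Promoters of 6 of the 7 genes searched carried the kappa-B letters that NF-kB dimers recognise. The 4 windows printed show the match in the inhibitor genes Nfkbia and Nfkbie, in a subunit and in the ubiquitin-editing enzyme. RefSeq promoter entries (GRCm38.p6) were matched by symbol for 7 of the 10 genes. Entries for Cd40, Relb and Nfkb1 were not used here. The 250 bases before each annotated start were searched on both strands for the letters GGG, any 3 bases and TTCC. The letters were present in 9 of 12 start windows, and some genes had more than 1 window. The share was 4.65% over all 32851 windows and 5.32% over the 13803 windows of symbols in the 3 count tables. By gene, 6 of the 7 had the letters, against 5.31% of all 27025 genes and 6.26% of the 10840 in the count tables. Traf1 had 1 window, without a match. Each sequence runs 5′ to 3′ on the strand of the gene and ends 1 base before the annotated start, with the match in capitals.
Nfkbia, chr12:55492648-55492897, minus strand: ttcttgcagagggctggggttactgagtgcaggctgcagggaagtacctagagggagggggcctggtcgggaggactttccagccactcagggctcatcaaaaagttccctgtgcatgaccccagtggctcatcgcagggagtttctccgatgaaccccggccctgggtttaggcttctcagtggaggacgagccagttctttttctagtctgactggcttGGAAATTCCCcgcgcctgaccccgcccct
Nfkbie, chr17:45555450-45555699, plus strand: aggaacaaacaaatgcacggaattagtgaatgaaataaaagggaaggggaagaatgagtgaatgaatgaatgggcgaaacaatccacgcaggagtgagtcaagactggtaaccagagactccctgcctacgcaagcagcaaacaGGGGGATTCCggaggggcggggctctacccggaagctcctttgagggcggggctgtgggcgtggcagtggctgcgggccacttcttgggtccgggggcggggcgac
Rel, chr11:23770970-23771219, minus strand: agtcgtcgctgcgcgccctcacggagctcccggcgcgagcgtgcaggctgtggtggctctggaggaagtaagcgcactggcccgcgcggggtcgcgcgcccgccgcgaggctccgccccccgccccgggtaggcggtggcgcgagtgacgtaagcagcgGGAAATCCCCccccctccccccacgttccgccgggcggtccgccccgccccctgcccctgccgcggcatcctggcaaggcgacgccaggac
Tnfaip3, chr10:19015411-19015660, minus strand: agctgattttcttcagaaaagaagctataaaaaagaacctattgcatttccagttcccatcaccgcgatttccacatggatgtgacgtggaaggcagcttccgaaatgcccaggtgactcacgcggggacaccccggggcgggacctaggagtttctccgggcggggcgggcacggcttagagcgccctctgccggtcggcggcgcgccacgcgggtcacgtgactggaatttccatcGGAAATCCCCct
The match began 29 bases before the start in Nfkbia, 106 in Nfkbie, 91 in Rel and 12 in Tnfaip3. Rel and Tnfaip3 held the same letters, GGAAATCCCC. In Nfkb2 the window of the most upstream RefSeq start used held 2 matches, GGAATTCCCC and GGGGCTTTCC. Of all windows 0.146% held 2 or more. By gene coordinates Nfkb2 began further upstream, at 46304320, and Tnfaip3 at 19015657. That Nfkb2 window thus lay inside the gene, and the printed Tnfaip3 window almost wholly so. The Nfkbid window with a match, from 30422156, also lay inside its gene, which began at 30421732. The Nfkbid window just before that start held no match. Matches describe letters in these windows and not binding.

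Levels below are counts of unique molecular identifiers (UMIs, which mark single transcripts) per 1000000 UMIs of the shared symbols (CPM), summed over the cells of a class in a library. The libraries held 1012 to 10648 cells, and the median cell held 17277.5 and 18233.5 UMIs in Day7, 3399 and 3178.5 in Day14, 6676 in Chimaera_control and 7185.5 in Chimaera_KO. Any 2 libraries shared at most 1.54% of the smaller one's cell barcodes. The 8 GC B cell markers summed to 5717 to 6907 CPM, and the T cell markers to 58.2 to 130.0, of which Lck alone gave 56.1 to 127. Erythroid markers summed to 650 CPM in Day7 replicate 1 and to 61.3 to 217 in the other 5 libraries. Plasma cell markers summed to 3700 and 3690 in Day7, 828 and 800.3 in Day14, 3678 in Chimaera_control and 2507 in Chimaera_KO; what these differences contribute to the results below was not tested except where stated. Fewer expressing cells and less RNA per cell cannot be told apart in such sums. Whether the 2 libraries of a day are different mice is not given, so p-values measure the spread between libraries, which may be technical.

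The first comparison set light zone against dark zone cells within each library, using the zone call that the authors deposited. Cells whose call was unknown entered no zone comparison. They numbered 0 in both Day7 libraries, 74 and 115 in Day14, 643 in Chimaera_control and 360 in Chimaera_KO. All 10 genes were higher in LZ cells, with fitted log2 differences from 0.25 for Nfkb1 to 1.46 for Nfkbid (edgeR quasi-likelihood test with library as a block, Benjamini-Hochberg adjusted p under 0.05 over 10862 genes). Across all genes 60.6% passed, 31.3% in the LZ direction and 11.5% with a log2 difference of at least 0.5 in that direction. Cd40, Relb, Nfkb2, Nfkbia, Nfkbie, Nfkbid and Tnfaip3 reached that size. How the zone was called is not given in the sources used here, and if it was called from the same cells' expression these p-values are not independent of the call. Lck made up most of the T cell marker sum. It stood at 70.4 to 178 CPM in LZ and 48.9 to 103 in DZ cells, higher in LZ in 6 of 6 libraries. Its part in the zone differences was not tested alone. Without cells holding a UMI of any T cell, myeloid, erythroid or stromal marker but Cr2, all 10 genes passed, where 47.3% of 9751 genes did. That left out many cells. Cells with such a UMI numbered 3014 in Day7, whose libraries held 1012 and 2530 cells. They numbered 10589 in Day14 (9109 and 10648 cells) and 8166 in the chimaeras (8038 and 7314 cells). Naive follicular markers, among them the light zone marker Fcer2a, summed to 175 to 453 CPM in LZ and 90.3 to 219 in DZ cells. They too were higher in LZ in 6 of 6 libraries, and their part was not tested.

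Cd40 lay between 79.7 and 123 CPM in LZ cells (median 106) and between 38.1 and 67.0 in DZ cells (median 52.2), so the lowest LZ library was above the highest DZ library. Its fitted log2 difference was 0.98 ± 0.04 (SE, 12 sums of 6 libraries, edgeR adjusted p = 2.8e-09). Within each library LZ cells held 1.84 to 2.34 times the DZ level of the receptor. Traf1, an adaptor that binds TNF receptor family tails and other TRAF proteins, differed less, by 0.45 ± 0.04 (SE; adjusted p = 6.6e-07). Its LZ levels of 77.8 to 147 CPM overlapped its DZ levels of 60.1 to 105 across libraries, but within every library the LZ cells were higher.

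The subunit genes showed differences of unequal size. Nfkb2 and Relb, the noncanonical partners, differed by 0.83 ± 0.05 (SE; adjusted p = 3.0e-08) and 0.66 ± 0.04 (SE; adjusted p = 1.3e-07). Rel and Nfkb1, which encode c-Rel and the p105 precursor of p50, differed by 0.40 ± 0.04 (SE; adjusted p = 2.6e-06) and 0.25 ± 0.07 (SE; adjusted p = 0.012). Relb gave 53.9 to 64.6 CPM in LZ cells and 33.8 to 44.8 in DZ cells, without overlap, while Nfkb1 gave 43.7 to 90.1 against 42.7 to 56.3. Nfkb1 was the only one of the 10 genes with a library in the other direction: in Day7 replicate 2 it stood at 43.7 CPM in LZ cells and 44.5 in DZ cells. Among all genes tested, 30.4% were higher in LZ cells in 6 of 6 libraries.

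Of the inhibitor genes, Nfkbid and Nfkbie had the largest fitted differences of the 10 genes, and Nfkbia lay below Cd40. Nfkbid, which encodes the nuclear protein IkBNS, gave 33.6 and 30.9 CPM in LZ cells of Day7, 126 and 119.6 in Day14, 50.3 in Chimaera_control and 41.6 in Chimaera_KO. In DZ cells of the same libraries, in that order, it gave 14.6, 12.6, 39.7, 36.5, 18.7 and 14.5. The level differed between groups, and the LZ cells were 2.31 to 3.28 times the DZ cells in each library (log2 1.46 ± 0.06 SE, adjusted p = 1.5e-09). Nfkbie, which encodes IkB epsilon, gave 60.9 to 118 CPM in LZ cells and 33.4 to 46.3 in DZ cells (log2 1.09 ± 0.05 SE, adjusted p = 8.9e-09). Nfkbia, which encodes IkB alpha, gave 351 to 441 and 185 to 263 (log2 0.89 ± 0.04 SE, adjusted p = 7.0e-09). Neither overlapped between zones. Tnfaip3 was measured at a lower level, 11.1 to 43.6 CPM in LZ cells and 6.99 to 22.1 in DZ cells, and differed by 0.74 ± 0.05 (SE; adjusted p = 2.6e-07).

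**Figure D1:**
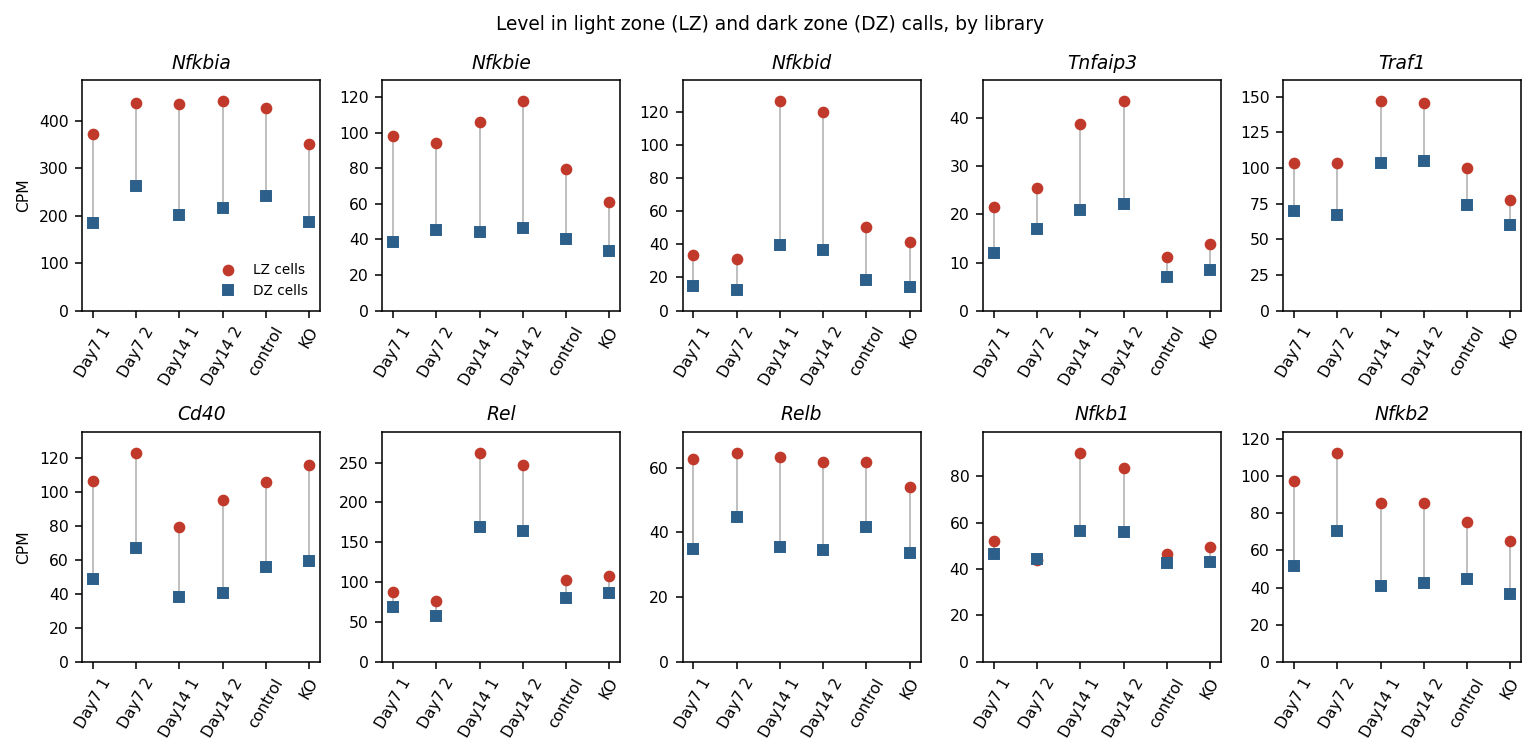
CPM of each gene in cells called LZ (red circles) and DZ (blue squares) in the 6 libraries, joined by a grey line within a library. LZ cells lie above DZ cells in 6 of 6 libraries for every gene but Nfkb1, which does so in 5.

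The zones differ in cell cycle, with G1 calls making up 71.0% to 81.9% of LZ cells and 14.5% to 20.1% of DZ cells, so the comparison was repeated among cells of 1 phase call. Among G1 cells all 10 genes were again higher in LZ cells (41.4% of 9582 genes passed, 20.8% in that direction). Nfkbid differed there by 2.19 ± 0.11 (SE; edgeR adjusted p = 6.5e-11), with DZ levels of 4.43 to 22.3 CPM and LZ levels of 31.7 to 122. Cd40, Nfkbie, Tnfaip3 and Nfkbia differed by 1.23, 1.21, 1.21 and 1.20 on the log2 scale, Nfkb2 by 0.95 and Relb by 0.86. Rel, Nfkb1 and Traf1 had the smaller differences, 0.42, 0.32 and 0.25. Among S phase cells all 10 were also higher in LZ cells (38.7% of 9703 genes passed, 18.9% in that direction), from 0.27 for Nfkb1 to 1.65 for Nfkbid. With no library block 6 of the 10 genes passed in each of these 3 comparisons, all but Traf1, Rel, Nfkb1 and Tnfaip3, where 9.65% of all genes passed for the zones, 2.66% within G1 and 2.71% within S.

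Within the light zone, S against G1 cells differed in 2 genes of 10, while 54.7% of 9791 genes passed, 25.3% higher and 29.4% lower in S. Nfkbia rose by 0.27 ± 0.07 (SE; edgeR adjusted p = 0.0028), from 327 to 411 CPM in G1 to 352 to 527 in S, ranges that overlap. Nfkb1 fell by 0.17 on the log2 scale (SE 0.05, adjusted p = 0.011). Without Day7 replicate 2 the Nfkb1 difference was -0.14 and did not pass, and without Day7 replicate 1 Nfkbie and Rel passed as well, at -0.16 and -0.19. 

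G2M calls within the light zone were few, 4 to 102 cells per library, and 8 of the 10 genes were higher in them than in G1 cells of the same zone (32.4% of 9088 genes passed, 15.5% in that direction). Nfkbia reached 1043 and 1077 CPM in the 2 Day7 libraries, 869 and 965 in Day14, 720.0 in Chimaera_control and 732 in Chimaera_KO, where its LZ G1 levels were 327 to 411. The fitted log2 difference was 1.19 ± 0.10 (SE; edgeR adjusted p = 6.2e-09). Cd40, Tnfaip3, Nfkbid, Nfkb2, Traf1, Nfkbie and Relb differed by 0.99, 0.99, 0.98, 0.92, 0.89, 0.82 and 0.69. Rel and Nfkb1, at 0.26 and 0.09, did not pass. The Day7 replicate 1 value rests on 4 cells, and without that library Rel passed as well, at 0.31. Nfkbid was higher in G2M in 5 of 6 libraries. In DZ cells the levels gave Cd40 higher in G2M than in G1 in 6 of 6 libraries, but Traf1 in 0 of 6.

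The other genes of the pathway did not all follow. Of 32 further components (receptors, adaptors, kinases and inhibitors), 30 were tested, and 15 were higher and 4 lower in LZ cells. Of all 10862 genes tested, 3399 were higher and 3185 lower. The median log2 difference was 0.11 for components, 0.01 for all genes tested and 0.78 for the 10 genes. The components with the largest positive difference were Birc3 (cIAP2, a ubiquitin ligase bound to TRAF proteins), at 0.86 ± 0.04 (SE), Bcl3 (an atypical IkB), at 0.76 ± 0.04, Tnip2 (an A20-binding protein), at 0.75 ± 0.06, and Nfkbiz (another atypical IkB), at 0.66 ± 0.05. Those lower in LZ cells were Tifa (a TRAF6-binding adaptor), at -0.77 ± 0.12, Tab2 and Map3k7 (the TAK1 kinase complex), at -0.32 ± 0.04 and -0.30 ± 0.05, and Traf2, at -0.18 ± 0.04. Of 24 genes known as NF-kB targets, 22 were tested and 19 were higher and 1 lower, with a median of 0.82. Cd83, Cd86 and Bcl2a1b of that list were also on the light zone marker list used to name clusters. Ccr7 (a chemokine receptor), Bcl2a1d (a survival factor), Egr2 and Irf4 (transcription factors) led, at 1.76, 1.75, 1.69 and 1.56 with SE of 0.13, 0.07, 0.11 and 0.12. Gadd45b was lower, at -0.28 ± 0.04 (SE). All of these named genes passed edgeR's test.

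Deposited clusters resolved the zones further and are given as a description. How they were drawn is not given in the sources used here, and it may have been from the same expression values. A single cluster of each table carried the MYC-high selected markers (Myc, Srm, Ncl and others) and held 131 to 690 cells per library. In that MYC-high-selected-like cluster Nfkbia stood at 438 to 712 CPM, Nfkb2 at 71.9 to 146, Relb at 59.7 to 85.3 and Nfkbid at 32.1 to 280.0, and each was the highest of all clusters in 6 of 6 libraries. Nfkbie was the highest there in 5 of 6 libraries, and Cd40 and Traf1 in 4 of 6 and the second highest in the other 2. Rel and Nfkb1 differed from this, being the highest there in 1 library each.

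**Figure D2:**
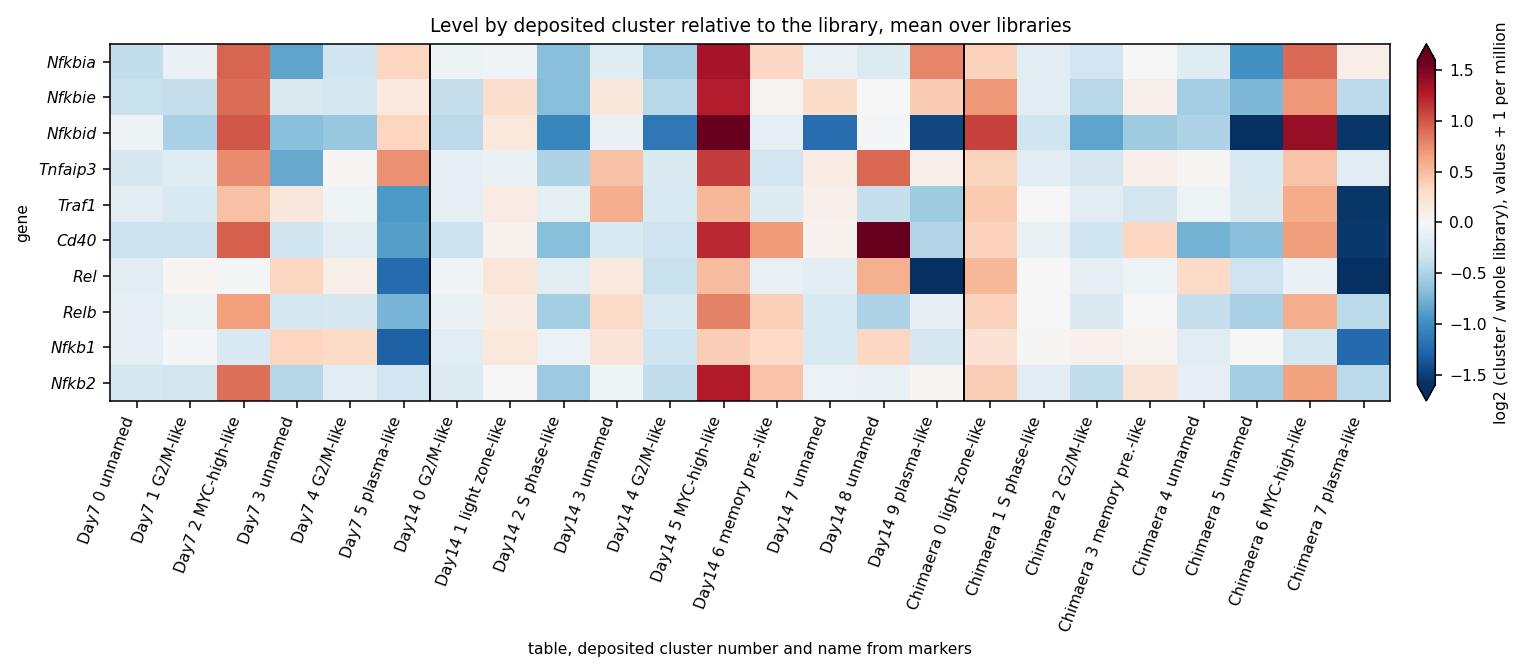
Level of each gene in each deposited cluster relative to its whole library, as log2 of (CPM + 1), averaged over the libraries with at least 50 cells of the cluster; black lines part the 3 tables. The MYC-high-selected-like column is red for Nfkbia, Nfkbie, Nfkbid, Nfkb2, Relb and Cd40 in each table, and the plasma-like column is blue for Rel and Traf1.

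Cells with plasma cell markers (Sdc1, Prdm1, Xbp1 and others) gave a different mix. In the 5 libraries with at least 50 such cells Rel was the lowest of all clusters, at 19.9 to 59.3 CPM, against whole-library levels of 64.1 to 200.4. Nfkb1 and Traf1 were the lowest there in 4 of the 5. Nfkbia was not: it stood at 259 to 543 CPM and was the second highest cluster in 3 of the 5. In plasma-like cells of Day14 Rel was thus the lowest and Nfkbia the second highest of the clusters, at 59.3 and 57.3 for Rel and at 543 and 429.7 for Nfkbia. Cd40 peaked elsewhere in Day14, at 185 and 184 CPM in an unnamed cluster led by immunoglobulin variable genes and Slpi, and MYC-high-selected-like cells came second at 118 and 139.

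The zone comparison was repeated without the MYC-high-selected-like cells. All 10 genes passed edgeR's test, where 59.1% of 10765 genes did, 29.2% in the LZ direction, and the values were smaller for all but Nfkb1: Nfkbid 1.13, Nfkbie 0.88, Cd40 0.75, Nfkb2 0.61, Nfkbia 0.60, Relb 0.51, Tnfaip3 0.50, Rel 0.36, Traf1 0.27 and Nfkb1 0.26. Without the plasma-like clusters and a Day7 cluster led by hemoglobin genes all 10 passed as well, from 0.26 for Nfkb1 to 1.59 for Nfkbid, where 52.5% of all genes passed. Both settings were added after the clusters had been seen.

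Across the clusters the 10 genes varied in unequal ways. Over 35 cluster-by-library sums of Day14 and the chimaeras, centred within library, Nfkb2 and Nfkbie had a Pearson r of 0.88, Nfkbia and Nfkbie 0.86, Nfkbia and Nfkb2 0.84, and Relb and Nfkb2 0.83. Rel and Nfkb1 had an r of 0.78 with each other, but Nfkbia had -0.05 with Rel and 0.03 with Nfkb1. Nfkbid lay between, with 0.83 to Nfkb2 and 0.63 to Rel. These sums share libraries, depth and cluster definitions, so the values are descriptions.

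Among 5523 other genes of sufficient level, those most like each member by the same measure were named by rule. Cd40 was most like Cd82 (a tetraspanin, r = 0.92) and Cd83 (an activation marker of light zone cells, r = 0.86), and Rel most like Cd86 (a costimulatory ligand, r = 0.95) and Bcl11a (r = 0.94). Birc3 was the most like gene for both Relb (r = 0.78) and Nfkb2 (r = 0.84). Nfkbie was most like Il4i1 (r = 0.84), Nfkbid like Zfp362 (r = 0.85) and Bcl2a1b (r = 0.85), Nfkbia like Tgs1 (r = 0.83) and Ccnd2 (cyclin D2, r = 0.82), and Tnfaip3 like Mdn1 (r = 0.83) and Icam1 (r = 0.81). Traf1 was most like Trmt1 and Pinx1 (r = 0.84 for each) and Nfkb1 like Sh3bp5 (r = 0.82) and Fam49b (r = 0.81).

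**Figure D3:**
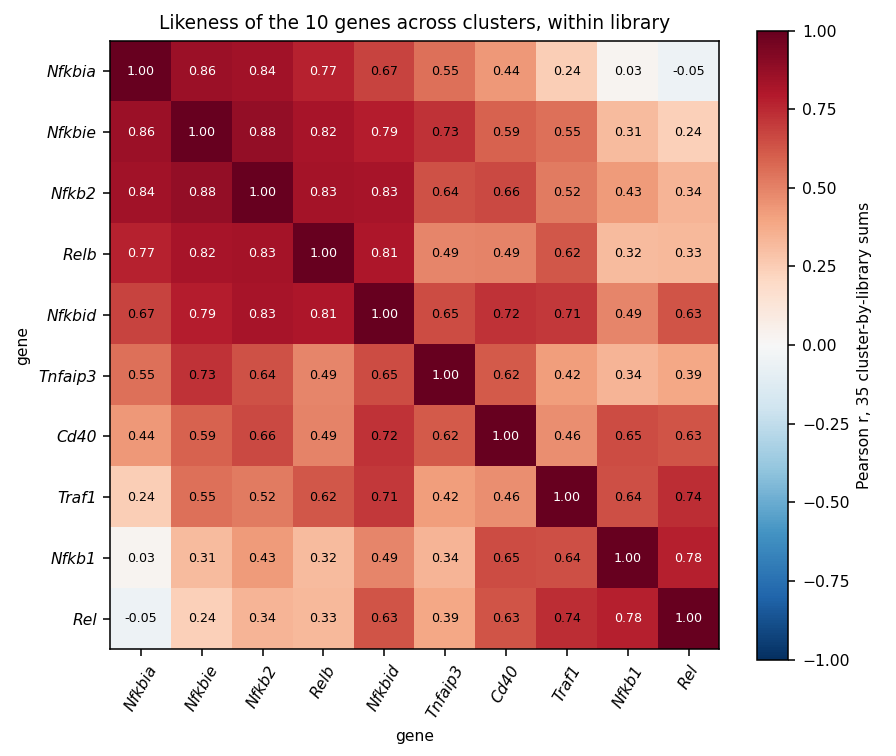
Pearson r between each pair of the 10 genes over 35 cluster-by-library sums of Day14 and the chimaeras, from log2 levels centred within library. Nfkbia, Nfkbie, Nfkb2 and Relb form a block of 0.77 to 0.88, and Nfkbia has values near 0 with Rel and Nfkb1.

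The second comparison set day 14 against day 7 in wild type mice. Nfkbid, Rel, Tnfaip3, Traf1 and Nfkb1 rose and Cd40, Nfkb2 and Relb fell, while Nfkbia and Nfkbie did not pass (edgeR quasi-likelihood test, 2 libraries against 2). This is a comparison in which 67.9% of 11971 genes passed, 34.9% higher and 33.0% lower, and in which 85.2% of genes did not overlap between the days, and 8 of 10 is to be read against those shares. The gate, the table construction and the depth per cell differ with the day and cannot be told apart from it.

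Rel gave 75.7 and 64.1 CPM in Day7 and 200.4 and 189.9 in Day14, a mean of 69.9 ± 8.23 against 195 ± 7.45 (SD, n = 2 each; log2 1.30 ± 0.08 SE, edgeR adjusted p = 6.1e-05). Nfkbid gave 21.5 and 19.1 in Day7 and 68.1 and 62.7 in Day14 (log2 1.51 ± 0.08 SE, adjusted p = 4.2e-05). Both genes stood apart between the days by far more than the spread within a day. The chimaeras, also sampled at day 14 under the Day14 gate, did not share these levels: Rel gave 88.6 in Chimaera_control and 93.0 in Chimaera_KO, and Nfkbid 29.5 and 22.8. Those values lie between the 2 wild type groups and nearer to Day7.

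Cd40 gave 69.8 and 87.0 CPM in Day7 and 51.7 and 58.0 in Day14 (log2 -0.71 ± 0.13 SE, edgeR adjusted p = 0.0033), and 72.9 and 76.9 in the 2 chimaeras. Nfkb2 gave 68.3 and 85.5 against 55.4 and 55.9 (-0.66 ± 0.12 SE, adjusted p = 0.0036), and Relb 44.9 and 51.8 against 44.6 and 43.1 (-0.34 ± 0.10 SE, adjusted p = 0.022). The Relb libraries of the 2 days nearly touched. Traf1 gave 81.9 and 79.8 against 118 and 117.6 (0.36 ± 0.06 SE, adjusted p = 0.0020), Nfkb1 48.5 and 44.2 against 67.3 and 64.6 (0.32 ± 0.07 SE, adjusted p = 0.0068), and Tnfaip3 15.4 and 19.997 against 26.8 and 28.8 (0.44 ± 0.14 SE, adjusted p = 0.030). Chimaera_control stood at 84.1, 44.2 and 8.33 for these 3 genes and Chimaera_KO at 65.8, 44.7 and 10.2, within or below the Day7 values for Nfkb1 and below them for Tnfaip3. Nfkbia overlapped between the days, at 252 and 325 against 278 and 286.

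TMM scaling, used in the fit, moved the median of all genes by 0.19 on the log2 scale against plain library totals, and under library totals Nfkbie had the opposite sign (0.11 against -0.08) and Relb no longer passed (-0.15). Under library totals 62.4% of passing genes were higher at day 14, against 51.4% with TMM. With each cell weighted alike, also without TMM, the share was 63.9%. Relb also missed the threshold without Day14 replicate 1 (-0.36) and without Day14 replicate 2 (-0.30), Nfkb1 without Day14 replicate 1 (0.29) and Tnfaip3 without Day14 replicate 2 (0.40). Without Day7 replicate 1, all 10 genes passed, with Nfkbia at -0.47 and Nfkbie at -0.18, and 71.6% of 12364 genes passed. Rel and Nfkbid passed under each of the 18 alternatives run.

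Depth per cell moves with the day and with several of the genes. The level of Rel was lower in the deepest of 4 equal depth groups of cells than in the shallowest in 6 of 6 libraries, by -0.89 to -0.63 on the log2 scale, and that of Tnfaip3 by -1.31 to -0.37, whereas that of Cd40 differed by -0.25 to 0.03. Among cells of 7290 to 9998 UMIs, the range that both tables hold (143 and 151 cells in Day7, 979 and 1038 in Day14), 5 of the 10 genes passed, where 45.0% of 9814 genes did. This range lies below the median depth of both Day7 libraries and above that of both Day14 libraries. Zone and cluster shares within it were not matched. Rel was then 89.0 and 107 against 156 and 144 CPM (log2 0.63), and Nfkbid 15.7 and 14.8 against 60.8 and 50.8 (log2 1.90). The Day7 values of Nfkbid rest on 19 and 21 UMIs. Cd40, Nfkb2 and Relb still passed, at -0.60, -0.41 and -0.43. Traf1 stood at 0.04, Nfkb1 at -0.09 and Tnfaip3 at -0.22, none passing. In the same range Chimaera_control gave 88.9 for Rel and 36.0 for Nfkbid.

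**Figure D4:**
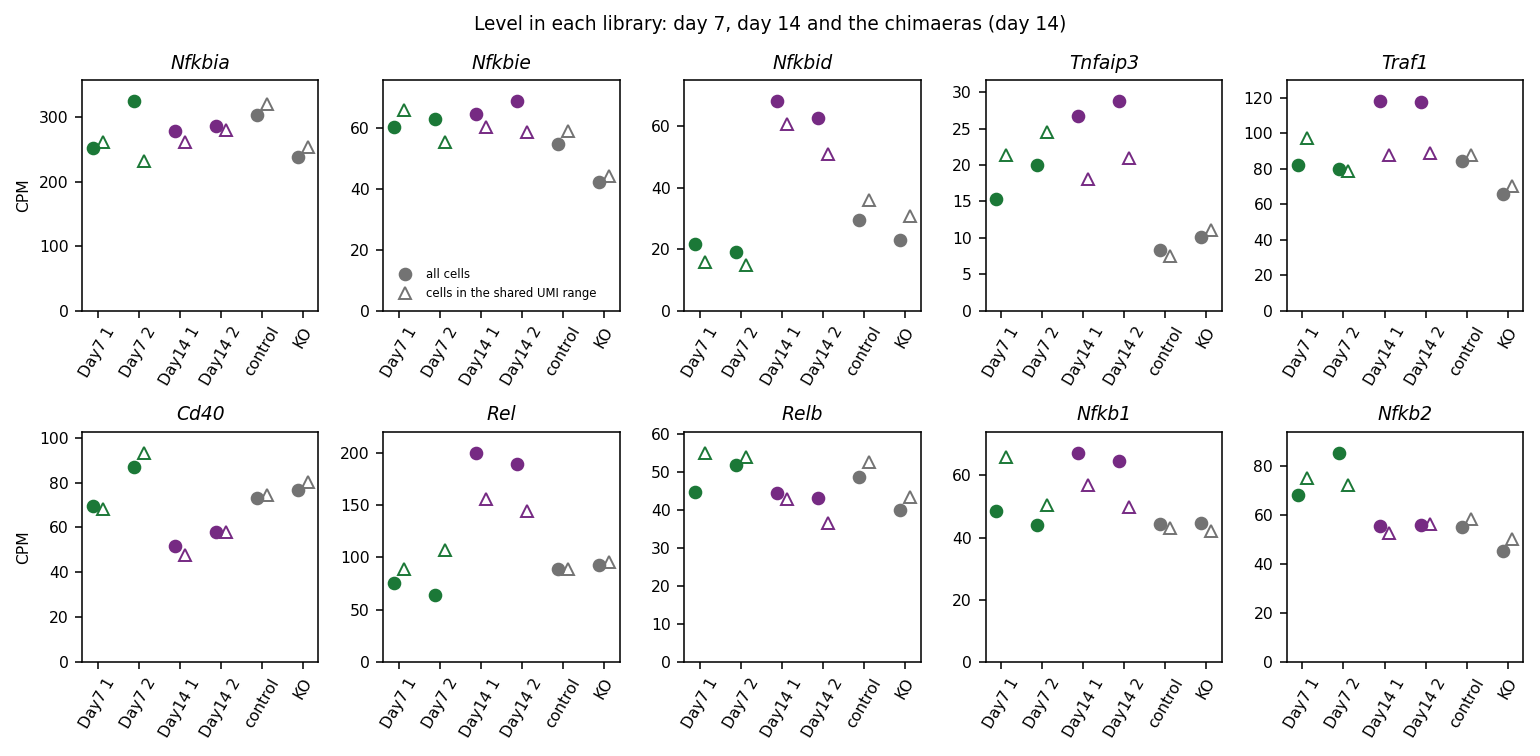
CPM of each gene in every library for all cells (filled circles) and for cells of 7290 to 9998 UMIs (open triangles), with Day7 green, Day14 purple and the chimaeras grey. Rel and Nfkbid are higher in Day14 than in the other 4 libraries in both sets of cells. The Day14 circles of these genes, like those of Tnfaip3, Nfkb1 and Traf1, stand above their triangles.

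With the 6 combinations of zone and phase given equal shares in each library (limma on log2 of CPM + 1), 58.3% of all genes passed, 36.6% higher, and the median of all genes was 0.19 in place of 0.04. This fit used no TMM scaling. LZ cells in G2M, 1 of the 6 combinations, were only 4 and 33 cells in the Day7 libraries, against 86 and 102 in Day14. Of the 10 genes 5 passed, a share below that of all genes, and each was higher at day 14: Nfkbid at 2.10, Rel at 1.67, Nfkb1 at 0.75, Tnfaip3 at 0.74 and Traf1 at 0.43. Cd40 and Nfkb2 were then at -0.27 and -0.23 and did not pass. In LZ cells alone Nfkb1 differed by 0.69, and in DZ cells alone by 0.12, which did not pass. Of the 30 components tested between the days 15 rose and 10 fell, with Malt1 (a paracaspase of antigen receptor signalling) at 1.09 ± 0.13 (SE) and Traf6 at 1.05 ± 0.07 leading the first and Nfkbib (IkB beta) at -0.77 ± 0.11 and Tradd at -0.71 ± 0.07 the second. Map3k7 and Otud7b (a deubiquitinase) also rose, by 0.96 and 0.91, and Bcl3 and Tnfrsf13c (BAFF receptor) fell, by 0.69 and 0.68. Of the 22 targets tested 3 rose, Ccr7, Irf4 (at 0.52) and Tnf (at 0.31), and 10 fell, led by Myc at -1.38, Egr2 at -1.32, Bcl2a1d at -1.28 and Bcl2a1b at -1.09. These counts stand beside the 34.9% of all genes that were higher and 33.0% that were lower. Ccr7 gave 0.70 and 1.07 CPM in Day7 and 8.21 and 2.70 in Day14 (2.34 ± 0.58 SE), and without Day14 replicate 1 it differed by 1.36. Tnf did not pass without Day14 replicate 1 (0.33) or without Day14 replicate 2 (0.30). Median log2 differences were 0.25 for components, -0.18 for targets, 0.12 for the 10 genes and 0.04 for all genes tested.

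Whether the zone difference itself changed between the days was tested as an interaction, which 2.29% of 11478 genes passed, 1.18% with the larger difference at day 14. Nfkb1 had a larger LZ to DZ difference at day 14, by 0.54 ± 0.09 (SE; edgeR adjusted p = 0.0021), with log2 LZ to DZ values of 0.17 and -0.02 in the Day7 libraries and 0.68 and 0.57 in the Day14 libraries. Nfkbid passed narrowly, by 0.39 ± 0.10 (SE; adjusted p = 0.048), with 1.21 and 1.30 against 1.67 and 1.71. The chimaeras gave 0.12 and 0.21 for Nfkb1 and 1.43 and 1.52 for Nfkbid. The other 8 genes did not pass, with values from -0.15 for Traf1 to 0.24 for Nfkb2. Neither call held without Day14 replicate 1 (0.47 for Nfkb1 and 0.40 for Nfkbid) or without Day14 replicate 2 (0.59 and 0.37), and among G1 cells Nfkbid differed by 0.02 while Nfkb1 still passed at 0.50. Without Day7 replicate 1, the library with most erythroid signal, 9 of the 10 genes passed, all but Traf1, and the share of all genes passing was 10.2% in place of 2.29%. Under library totals without TMM both genes passed, and 66.9% of passing genes were higher, against 51.7% with TMM.

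The third comparison set the chimaera with Il4ra-deleted Ccl19-lineage host cells against the control chimaera. Nfkbia, Nfkbie, Nfkbid, Traf1, Relb and Nfkb2 were lower in the KO library, with log2 ratios of -0.38 to -0.28, and Cd40, Rel and Nfkb1 differed by at most 0.08. With 1 library per group there is no test. Genes were singled out only past a size rule: at least 20 CPM in either one, a log2 ratio of at least 0.5, a 95% interval excluding 0, and more than the ratio between the 2 Day14 libraries. Of the 10 genes 9 reached the minimum level, all but Tnfaip3. None of these 9 passed the rule, against 1.40% of the 5055 genes at that level. At a ratio of 0.25 in place of 0.5, 6 of the 9 passed, all lower, against 7.26% of genes, 4.39% in that direction. Intervals are exact conditional binomial and cover counting error only.

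Nfkbia stood at 303 CPM in Chimaera_control and 238 in Chimaera_KO (18159 and 13783 UMIs, log2 -0.35, interval -0.38 to -0.32). Nfkbie stood at 54.8 and 42.2 (-0.38, interval -0.45 to -0.30), Nfkbid at 29.5 and 22.8 (-0.37, interval -0.47 to -0.27) and Traf1 at 84.1 and 65.8 (-0.35, interval -0.41 to -0.29). Nfkb2 stood at 54.9 and 45.1 (-0.28, interval -0.36 to -0.21) and Relb at 48.6 and 40.1 (-0.28, interval -0.36 to -0.20). The 2 Day14 libraries differed by -0.12 to 0.17 on the same scale for the 10 genes, so these 6 ratios were larger than the 1 replicate spread at hand. Cd40 stood at 72.9 and 76.9 (0.08, interval 0.02 to 0.14), Rel at 88.6 and 93.0 (0.07, interval 0.02 to 0.13) and Nfkb1 at 44.2 and 44.7 (0.02, interval -0.06 to 0.09). Tnfaip3, at 8.33 and 10.2 CPM, was under the minimum level (0.29, interval 0.11 to 0.46).

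**Figure D5:**
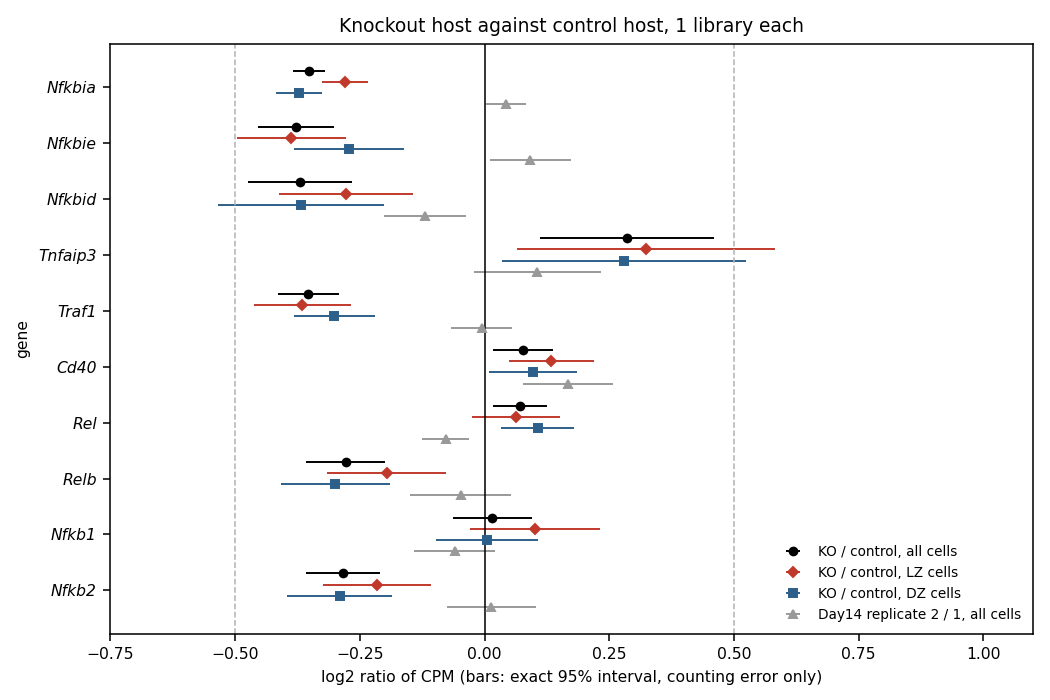
Log2 ratio of CPM in the KO over the control chimaera for all cells (black), LZ cells (red) and DZ cells (blue), and between the 2 Day14 libraries (grey), with exact 95% intervals for counting error only; dashed lines mark a ratio of 0.5. Nfkbia, Nfkbie, Nfkbid, Traf1, Relb and Nfkb2 lie left of 0 in all 3 sets of cells and none passes -0.5.

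The lower values held in both zones. In LZ cells Nfkbia stood at 426 and 351 CPM (-0.28) and in DZ cells at 242 and 187 (-0.37), and Nfkbie differed by -0.39 in LZ and -0.27 in DZ cells. By cluster, Nfkbia was lower in the KO library in 8 of 8 clusters with an interval below 0 in each, from -0.43 in the memory-precursor-like to -0.20 in the light-zone-like cluster. Relb was lower in 8 of 8 clusters, with an interval below 0 in 4 of them. Traf1, Nfkbie, Nfkb2 and Nfkbid were lower in 7 of 8, with an interval below 0 in 7, 7, 6 and 5. In MYC-high-selected-like cells Nfkbia stood at 581 and 438 and Nfkbie at 90.7 and 67.2. Cd40 was lower in 3 of 8 clusters and Rel in 1 of 8.

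Of the wider lists, none of the 18 components and 1 of the 16 targets at the minimum level passed the size rule over all cells. That was Cd83, an activation marker of light zone cells, at 258 CPM in Chimaera_control and 398 in Chimaera_KO (0.62, interval 0.59 to 0.65). In LZ cells alone Cd83 passed as well (0.65), and Irf4 and Ccr7 passed with lower values in the KO library. Irf4 stood there at 25.3 and 14.2 CPM (-0.84) and Ccr7 at 29.7 and 7.32 (-2.02). Ccr7 also differed by -1.64 between the LZ cells of the 2 Day14 libraries. In DZ cells Cd83 alone passed (0.70). Over all cells targets had a median log2 ratio of -0.18 with 13 of 16 lower and components -0.04 with 15 of 18 lower. All genes at that level had 0.00 with 2503 of 5055 lower. The 2 libraries also differed in plasma cell markers (3678 and 2507 CPM) and in Lck, which made up most of the T cell marker sum (77.8 and 56.1); the part of these in the ratios was not tested. With the 8 clusters given equal shares in both libraries, the 6 ratios were -0.38 to -0.27.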

How the data were processed

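Single-cell libraries of 5' transcript ends were deposited as 3 tables of UMI counts per gene and cell, with 1 table of cells beside each, which gives the library, cluster, Position (zone) and Phase of every cell. Cell Ranger, Seurat and mm10 are named by the submitters' processing notes. How cells were filtered, doublets treated and zones, phases and clusters called is not given in the sources used here. Chimaera cells were assigned to libraries by the deposited library names, which state marrow and host.

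Counts were summed per library, zone or phase over the 14548 symbols listed in all 3 tables. LZ against DZ, phase and interaction comparisons used edgeR 4.0.16 quasi-likelihood fits with TMM scaling and library as a block, and the days were compared without a block. Standard errors are the log2 difference divided by the square root of F, and calls are Benjamini-Hochberg adjusted p under 0.05 over all tested genes. Equal-share values of the days, and fits with cells weighted alike, used limma 3.58.1 on log2 of counts per 1000000 UMIs (CPM) + 1. These had no TMM scaling. DESeq2 1.42.0 served as an alternative. Scripts were tested on simulated counts. Clusters were named from marker lists. Up to 4 genes per direction and list with the largest called difference were named, and the 2 genes with the highest r for each member. The members and lists were chosen with earlier results of these data known. No doublet caller was run, and leaving out the 5% of cells with most genes was an alternative. Exact intervals (95%) cover counting error only.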

Additional observations from a re-analysis of the deposited data

Results flagged for a closer look

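In 2 of the 10 genes the difference between light and dark zone itself differed between day 7 and day 14 by a test of that difference (edgeR interaction). Nfkb1, which encodes the p105 precursor of p50, had a zone difference larger by 0.54 on the log2 scale at day 14, and Nfkbid, which encodes the nuclear inhibitor IkBNS, one larger by 0.39. In both genes the 2 Day14 libraries lay above the 2 Day7 libraries. Neither gene passed without Day14 replicate 1 or without Day14 replicate 2, where both remained at an unadjusted p under 0.05. Among G1 cells Nfkb1 differed by 0.50 and Nfkbid by 0.02. The sort gate and the depth per cell differ with the day and cannot be told apart from it.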

How the results depend on the processing

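The 10 zone calls held under 17 of 18 alternatives, and those within G1 and within S in each of 6 leave-one-out fits (10 to 10). With no replicate block, 6 of 10 genes passed in each of these 3 comparisons (Traf1, Rel, Nfkb1 and Tnfaip3 did not), and 0 for S against G1 in LZ cells (edgeR, 0 at an unadjusted p under 0.05). Genes passing in all then fell from 6584 to 1048, from 3963 to 255 within G1 and from 3753 to 263 within S. They fell to 3785 for the zones with cells thinned to 1000 UMIs, which left out 806 Day14 and 44 chimaera cells. Leaving out 1 library gave 1 to 4 genes for S against G1, 8 to 9 for G2M against G1, 6 to 10 for the days and 0 to 9 for the interaction, where 26 to 1223 of all genes passed against 263. Of all genes, 48.5% to 51.9% passed in those fits for S against G1 and 23.7% to 31.5% for G2M against G1. Over those fits S against G1 ran from -0.049 to 0.056 for Cd40, from -0.038 to 0.021 for Traf1 and from -0.031 to 0.14 for Nfkbid. G2M against G1 ran from -0.018 to 0.17 for Nfkb1, and the interaction from -0.011 to 0.26 for Nfkbie.

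For the days, 5 genes passed among cells of the shared UMI range (4417 of all genes against 8127) and 5 with equal zone-by-phase shares. Signs turned for Nfkbia with cells weighted alike (0.0017) and in the shared range (0.16), for Nfkbie under library totals (0.11), with cells weighted alike (0.22, passing) and in LZ cells (0.041), and for Nfkb1 (-0.092) and Tnfaip3 (-0.22) in the shared range. The fit with cells weighted alike also dropped TMM scaling and used limma, so weighting alone was not tested. The interaction of Tnfaip3 was -0.28 among G1 cells. For KO against control, 6 genes passed at a ratio of 0.25. The cause of these changes was not tested.

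Replicate numbers 1 and 2 of the days are only numbers: deviations of same-numbered libraries had r = 0.20 over 11971 genes, with 2 pairs. With them as a replicate block, 8 genes passed, as without it, where 70.1% of all genes did. Cd40 was then at -0.70, Nfkbid at 1.503 and Rel at 1.30. Library totals without TMM and the fits without named clusters were added after seeing the data. Tnfaip3, at 8.33 to 28.8 CPM, has the lowest level, and single libraries per chimaera group allow no test.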
